A study of Rattus norvegicus and Mus musculus with 24 samples.

Results

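The 10 genes described here encode the carriers by which the kidney proximal tubule recovers filtered amino acids. SLC6A19, SLC6A18, SLC6A20, SLC36A2, SLC1A1 and SLC7A13 lie on the luminal side. SLC16A10, SLC7A7 and SLC7A8 lie on the blood side, with SLC3A2, the partner of SLC7A7 and SLC7A8. They were taken by symbol from a mouse table of 17376 gene symbols and a rat table of 14931, and all 10 were present in both. The study deleted Ctns, which encodes cystinosin, the carrier that exports cystine from lysosomes and whose loss causes cystinosis. RNA was sequenced from the kidneys of 4 Ctns KO and 4 Ctns WT mice on a C57BL/6 background and of 8 Ctns KO and 8 Ctns WT Sprague-Dawley rats. The deletions were carried by the whole animal, and neither the ages nor the sex of the sequenced rats stand in the labels. The groups are labelled by genotype alone, with no agent named. The paper also gave rapamycin or placebo pellets to Ctns rats, and does not state whether any sequenced rat was among them. The rats carry the numbers 17 to 32. Numbers 17-24 and 25-32 hold 4 Ctns KO and 4 Ctns WT rats each, and what separates the ranges is not stated.

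Free amino acids pass the glomerular filter and are taken back almost completely in the proximal tubule. Carriers in the brush border bring them into the cell together with sodium or protons, and carriers in the basolateral membrane pass them on to the blood, several of them as exchangers that need the heavy chain SLC3A2 to reach the membrane. Loss of this uptake, with glucose and phosphate loss, is part of the renal Fanconi syndrome for which cystinosis is known.

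The labels call the material proximal tubule cells of kidney cortex. Libraries held 19309449 to 44449859 reads in the mouse and 24684097 to 40629873 in the rat. Of the 5 podocyte markers listed, all 5 were in the rat table, with a summed level of 462 to 938 counts per 1000000 reads (CPM) over the 16 rats, so the tissue held cells other than proximal tubule. CTNS itself, a scaled value of 0.332 ± 0.0102 in Ctns KO against 0.918 ± 0.0868 in Ctns WT mice (SD, n = 4), did not overlap between the mouse groups. In the rats it was 19.1 ± 1.86 against 22.3 ± 2.98 CPM (SD, n = 8), with overlapping groups, and gave no check of the rat labels.

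SLC6A19 and SLC6A18 are neighbours in the genome, and both fell in Ctns KO rats, so their promoters are shown. In the mouse (mm10) Slc6a18 spans chr13:73661752-73678023 and Slc6a19 chr13:73679745-73704865. In the rat RefSeq annotation of GRCr8, a build other than the rn5 named in the submitters' processing notes, both genes are read from the plus strand of chromosome 1. Each sequence runs from 250 bases before to 50 bases after the annotated start. The capitals mark ATTAAC, which is GTTAAT read from the minus strand, the short core of sites bound by HNF1 factors, regulators of proximal tubule genes.
Slc6a19, chr1:31414494-31414793, plus strand: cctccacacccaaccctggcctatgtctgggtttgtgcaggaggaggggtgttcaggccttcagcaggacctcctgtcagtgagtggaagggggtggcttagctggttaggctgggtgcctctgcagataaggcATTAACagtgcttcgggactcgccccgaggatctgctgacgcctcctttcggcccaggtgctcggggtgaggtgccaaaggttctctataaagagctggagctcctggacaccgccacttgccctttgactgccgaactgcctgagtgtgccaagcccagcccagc
Slc6a18, chr1:31436403-31436702, plus strand: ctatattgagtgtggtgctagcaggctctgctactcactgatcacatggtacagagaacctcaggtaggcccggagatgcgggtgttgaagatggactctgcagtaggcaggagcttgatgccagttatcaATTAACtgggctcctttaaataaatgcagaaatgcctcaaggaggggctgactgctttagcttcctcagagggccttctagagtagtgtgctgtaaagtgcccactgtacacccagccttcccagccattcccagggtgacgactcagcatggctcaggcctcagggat
The match began 116 bases before the start of Slc6a19 and 119 bases before that of Slc6a18. The RefSeq table held 11 promoters for 9 rat genes matching 8 members, and 3 of the 11 carried GTTAAT on either strand, beside 7.45% of all 33469 promoters of that length. AGGTCA, a half-site of nuclear receptors, was in 3 of the 11 and in 16.2% of all, and CAAAGTCCA was in 0 of the 11 and in 0.391% of all. These are letter matches in a window and not measured sites.

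In the kidneys of Ctns KO rats, 8 of the 9 members that could be tested were lower than in Ctns WT rats, and the ninth, SLC7A13, was not called. Over all 11584 genes tested, 12.3% were called lower and 15.2% higher. SLC3A2 fell by 15.99% and SLC6A19, at the other end, fell by 36.7%, and both brush border and basolateral carriers were among those that fell. The median log2 fold change of the 9 members was -0.38, beside -0.02 over all genes tested. The test was the quasi-likelihood test of edgeR on read counts with TMM scaling, and a gene was called at a Benjamini-Hochberg adjusted p under 0.05. Rat levels below are TMM-scaled CPM, with SD over n = 8 per genotype. In bulk tissue, fewer cells of a type and less RNA per cell cannot be told apart.

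SLC6A19 (B0AT1), the main sodium-coupled carrier of neutral amino acids in the brush border and the gene of Hartnup disorder, showed the largest drop of the 9. In the Ctns WT rats numbered 17-24 it stood at 257, 266, 307 and 299 CPM and in those numbered 25-32 at 287, 382, 357 and 336 CPM. In the Ctns KO rats it stood at 213, 251, 242 and 259 CPM in the first range and at 182, 144, 141 and 145 CPM in the second. The 4 Ctns KO rats of 25-32 were the lowest of all 16, and across both ranges the genotypes overlapped only slightly. The log2 fold change over all rats was -0.66 ± 0.14 (SE; edgeR adjusted p = 0.00229).

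SLC1A1 (EAAC1), the sodium-dependent carrier of glutamate and aspartate whose loss causes dicarboxylic aminoaciduria, also fell. Ctns WT rats had 152, 147, 159 and 147 CPM in 17-24 and 211, 260, 247 and 213 CPM in 25-32. Ctns KO rats had 118, 129, 137 and 134 CPM in 17-24 and 139, 115, 130 and 109 CPM in 25-32. Every Ctns KO rat lay under every Ctns WT rat, and the high values were those of the Ctns WT rats of 25-32. The log2 fold change was -0.60 ± 0.12 (SE; edgeR adjusted p = 0.00172).

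Among the other luminal carriers, SLC6A18 (B0AT3), a carrier of glycine and alanine, had 285 to 408 CPM (median 316) in Ctns WT and 221 to 313 CPM (median 258) in Ctns KO rats. Its log2 fold change was -0.34 ± 0.08 (SE; edgeR adjusted p = 0.00501), and the groups overlapped. SLC6A20 (SIT1), the carrier of proline and other imino acids, ran from 19.5 to 22.996 CPM (median 20.9) in Ctns WT and from 12.9 to 18.9 CPM (median 15.9) in Ctns KO rats. These groups did not overlap, and its log2 fold change was -0.38 ± 0.07 (SE; edgeR adjusted p = 0.0014). The rat and the mouse each have a pair of genes, Slc6a20a and Slc6a20b, that this symbol can stand for, and how the authors joined them is not given in the sources used here.

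SLC36A2 (PAT2), a proton-coupled carrier of glycine and proline, was not measurable in the rat kidneys. It had 2 reads in all, in 2 of the 16 rats, and was left untested. A count of 3 reads, set here as the floor, corresponds to 0.0738 to 0.122 CPM by library total. Every rat lay under that floor, so no level is given.

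On the blood side, SLC16A10 (TAT1), which lets aromatic amino acids out of the cell, fell most. Ctns WT rats had 43.7, 44.3, 38.6 and 43.6 CPM in 17-24 and 40.3, 48.8, 45.0 and 38.2 CPM in 25-32. Ctns KO rats had 28.5, 33.6, 33.7 and 36.4 CPM in 17-24 and 28.8, 21.6, 24.4 and 23.8 CPM in 25-32. All Ctns KO rats were below all Ctns WT rats, and the Ctns WT rats of both ranges lay alike. The log2 fold change was -0.57 ± 0.10 (SE; edgeR adjusted p = 0.000538). The share of all genes without overlap between all Ctns WT and all Ctns KO rats was not counted, here or for SLC1A1 and SLC6A20 above.

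The light chains SLC7A8 and SLC7A7 and the heavy chain SLC3A2 fell by less. SLC7A8 (LAT2), an exchanger of neutral amino acids, had 274 to 407 CPM (median 317) in Ctns WT and 213 to 293 CPM (median 242) in Ctns KO rats, a log2 fold change of -0.40 ± 0.09 (SE; edgeR adjusted p = 0.00375). SLC7A7 (y+LAT1), which exports lysine and arginine and is mutated in lysinuric protein intolerance, had 431 to 705 CPM (median 641) against 415 to 499 CPM (median 467), a change of -0.36 ± 0.10 (SE; edgeR adjusted p = 0.0122). SLC3A2 (4F2hc), which pairs with both, had 400 to 577 CPM (median 517) against 388 to 479 CPM (median 404), a change of -0.25 ± 0.08 (SE; edgeR adjusted p = 0.0245). The groups of all 3 overlapped, and for SLC7A7 the Ctns KO rats were the tighter group, with an SD of 32.7 beside 109 CPM in Ctns WT. The SLC3A2 call rested on scaling and on single rats. It was lost with library totals in place of TMM (log2 fold change -0.15, adjusted p = 0.0966) and when Ctns WT rat 29 (adjusted p = 0.0666), Ctns WT rat 31 (0.0563) or Ctns KO rat 18 (0.0526) was left out.

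**Figure D1:**
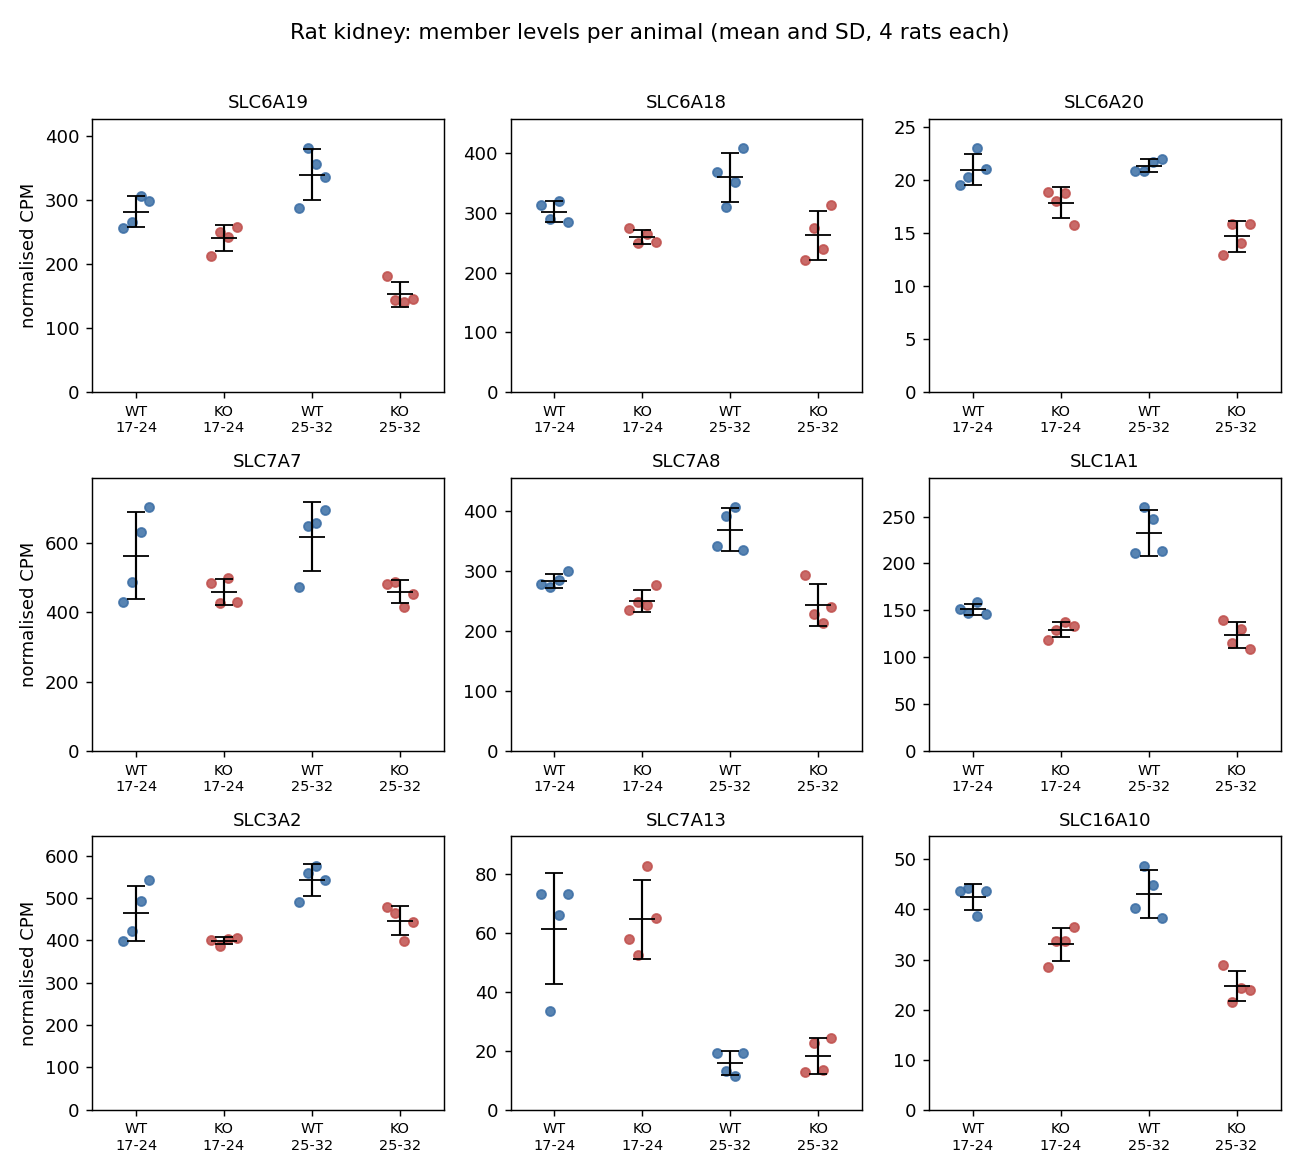
Normalised level of the 9 members measured in the rat, in TMM-scaled CPM from 0 on the vertical axis, for Ctns WT (blue) and Ctns KO (red) rats of numbers 17-24 and 25-32. Each point is 1 rat and the bars give the mean and SD of 4 rats. SLC6A19 is lowest in the Ctns KO rats of 25-32, SLC1A1 highest in the Ctns WT rats of 25-32, and SLC7A13 is split by range and not by genotype.

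SLC7A13 (AGT1), a carrier of aspartate, glutamate and cystine that pairs with the heavy chain SLC3A1 in the late proximal tubule, was the exception among the 9. Ctns WT rats had 73.3, 33.6, 66.1 and 73.2 CPM in 17-24 and 19.3, 13.2, 11.5 and 19.5 CPM in 25-32. Ctns KO rats had 58.0, 52.5, 82.9 and 65.2 CPM in 17-24 and 12.8, 22.7, 13.5 and 24.5 CPM in 25-32. The genotypes overlapped in both ranges, while every rat of 25-32 lay under every rat of 17-24. The genotype change was 0.10 ± 0.47 on the log2 scale (SE; edgeR adjusted p = 0.891), and the wide error holds the spread between ranges. Its reads were not whole numbers (within 0.01) in all rats, while those of the other members were, so its counts are estimates.

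Split by range, the fitted losses of the 8 members lower in Ctns KO rats were larger in the rats numbered 25-32, a difference called for 4 of them. In 25-32, 8 members fell, where 22.1% of 11633 genes tested were called lower. The median log2 fold change there was -0.54 over the 9 members, beside -0.01 over all genes. In 17-24, 3 members fell, where 2.19% of 11610 genes were called lower, with a median of -0.21 beside 0.00 over all genes. Those 3 were SLC16A10, SLC1A1 and SLC6A18. Within 25-32, SLC6A19 fell by 55.1%, SLC1A1 by 47.0% and SLC16A10 by 42.7%. The genotypes did not overlap in these 3, nor in SLC6A20, SLC7A8 and SLC3A2. Within 17-24, SLC16A10 fell by 21.9%, SLC1A1 by 13.8% and SLC6A18 by 13.5%. These did not overlap either, and nor did SLC6A20, which was not called. The share of all genes without overlap was not counted.

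The test of the difference between the ranges called 4 members, SLC6A19, SLC1A1, SLC16A10 and SLC7A8, all with the larger loss in 25-32. Over all 11839 genes, 7.64% were called in that direction. For SLC6A19 the log2 fold change went from -0.22 in 17-24 to -1.15 in 25-32, a difference of -0.93 ± 0.14 (SE; edgeR adjusted p = 0.000583). For SLC1A1 it went from -0.21 to -0.92, a difference of -0.70 ± 0.12 (SE; edgeR adjusted p = 0.0014). The differences for SLC7A8, -0.42 ± 0.13 (SE; edgeR adjusted p = 0.0353), and SLC16A10, -0.44 ± 0.14 (SE; edgeR adjusted p = 0.0368), rested on scaling and on single rats: with library totals their adjusted p were 0.128 and 0.164, and each was called in 6 of the 16 fits that left out 1 rat, being lost without any of Ctns WT rats 17, 19, 21, 27 and 29 and Ctns KO rats 20, 22, 24, 28 and 32. For SLC6A20 (-0.31, adjusted p = 0.0756) and SLC6A18 (-0.24, adjusted p = 0.224) the edgeR test of the difference did not pass. Nor did the edgeR test pass for SLC7A7 (-0.14, adjusted p = 0.655), SLC3A2 (-0.07, adjusted p = 0.723) or SLC7A13 (0.13, adjusted p = 0.842).

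The calls of the 17-24 range were also fragile. SLC16A10 was called in all 8 fits that left out 1 of these rats, SLC6A18 in 2 and SLC1A1 in 2. SLC6A18 was lost without any of Ctns WT rats 17, 19 and 21 and Ctns KO rats 20, 22 and 24, and SLC1A1 without any of Ctns WT rats 17, 19 and 21 and Ctns KO rats 18, 20 and 24. SLC1A1 was also lost with library totals (-0.20, edgeR adjusted p = 0.0838). In a fit of all 16 rats the 17-24 contrast called only SLC16A10 of the 9.

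The ranges differed within the Ctns WT rats as well, in 3 of 9 members. SLC1A1 rose from 151 ± 6.005 CPM in 17-24 to 233 ± 24.8 CPM in 25-32 (SD, n = 4), a log2 difference of 0.62 ± 0.08 (SE; edgeR adjusted p = 4.63e-05). SLC7A8 rose from 284 ± 11.5 to 369 ± 36.1 CPM (SD, n = 4), by 0.38 ± 0.09 (SE; edgeR adjusted p = 0.00603), and that call was lost with library totals (0.25, adjusted p = 0.0535). SLC7A13 dropped by 1.96 ± 0.28 on the log2 scale (SE; edgeR adjusted p = 0.000157), from 61.6 ± 18.9 to 15.9 ± 4.12 CPM (SD, n = 4). None of these 3 overlapped between the ranges, and the share of all genes without overlap was not counted. Over all 11839 genes, 11.7% were called higher and 9.43% lower in 25-32. Beside these shares, 2 higher and 1 lower of 9 members do not set the members apart.

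The group means show on which side the ranges parted for the 3 genes with the largest changes. For SLC1A1 the Ctns KO means of the ranges were 130 ± 8.46 and 123 ± 13.9 CPM (SD, n = 4), with the Ctns WT mean the higher in 25-32. For SLC6A19 the Ctns KO means were 241 ± 19.7 and 153 ± 19.6 CPM (SD, n = 4), without overlap, and the Ctns WT means 282 ± 24.3 and 340 ± 40.1 CPM. For SLC16A10 the Ctns WT means were 42.6 ± 2.62 and 43.1 ± 4.73 CPM and the Ctns KO means 33.1 ± 3.32 and 24.7 ± 3.03 CPM (SD, n = 4). The range difference within Ctns KO rats was not tested.

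TMM and library totals placed the ranges differently. In 25-32 the median log2 fold change of all genes was -0.01 with TMM and 0.15 with library totals, and for the range difference of the genotype change it was -0.01 and 0.14. With library totals 6 of the 9 members fell in 25-32, SLC7A7 (adjusted p = 0.0616) and SLC3A2 (adjusted p = 0.179) being lost in edgeR, and SLC6A19 still fell there by 0.99 on the log2 scale.

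**Figure D2:**
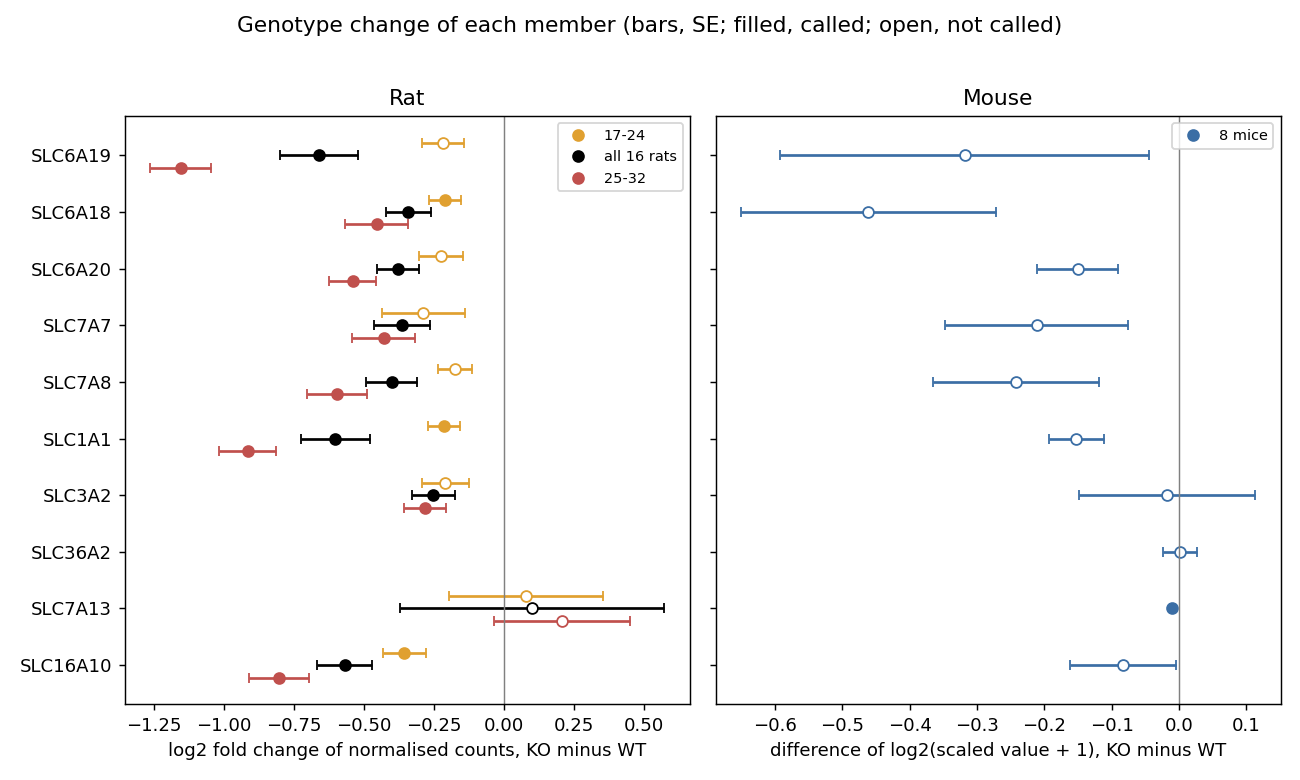
Genotype change of the 10 members, Ctns KO minus Ctns WT, with SE bars. The left panel gives log2 fold changes in rats of 17-24, in all 16 rats and in rats of 25-32, and the right panel differences of log2(scaled value + 1) in 8 mice, on its own axis. Filled points passed an adjusted p of 0.05. In the rat all tested members but SLC7A13 lie left of 0, and SLC6A19 and SLC1A1 show the widest gap between ranges.

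Other cell markers moved with genotype and range in the same libraries. The summed level of the 9 proximal tubule markers in the rat table ran from 12900 to 23244 CPM in Ctns WT and from 9332 to 12823 CPM in Ctns KO rats, with 7 of the 9 called lower. In Ctns WT it was 12900 to 17700 CPM in 17-24 and 19939 to 23244 CPM in 25-32, with 5 of the 9 markers called higher in 25-32 and 1, CUBN, lower (1029 ± 186 to 548 ± 67.9 CPM; SD, n = 4, edgeR adjusted p = 2.49e-05). Between the same Ctns WT ranges 3 of 3 thick limb and distal, 4 of 5 podocyte and 3 of 4 endothelial markers were called lower in 25-32. Of 5 collecting duct markers 3 were lower and 1 higher. Called higher were 3 of 4 lymphocyte, 4 of 6 macrophage and 3 of 5 injured tubule markers. Over all genes 11.7% were called higher and 9.43% lower in 25-32. Between genotypes over all rats, 12.3% of all genes were called lower and 15.2% higher in Ctns KO. The 5 markers of injured tubule were all called higher in Ctns KO rats. Their sums were 202 to 353 CPM in Ctns WT, 904 to 1469 CPM in Ctns KO rats of 17-24 and 3467 to 5321 CPM in Ctns KO rats of 25-32. HAVCR1 (KIM-1), the best known of them, had 40.9 ± 10.3 and 189 ± 22.2 CPM in Ctns KO rats of 17-24 and 25-32 (SD, n = 4), beside 3.12 ± 0.751 and 8.82 ± 1.91 CPM in Ctns WT. Of the 6 macrophage markers tested 5 were higher, with summed levels of 79.4 to 146 CPM in Ctns WT and 127 to 353 CPM in Ctns KO. The 5 fibroblast markers (189 to 212 against 234 to 454 CPM) and the 4 lymphocyte markers tested (26.2 to 52.4 against 45.7 to 89.2 CPM over the list) were all called higher. Of the 3 thick limb and distal markers tested 2 were higher, with 2822 to 4328 CPM summed in Ctns WT and 3946 to 4782 CPM in Ctns KO rats. The summed levels of podocyte (571 to 938 against 462 to 844 CPM), collecting duct (649 to 983 against 659 to 912 CPM) and endothelial markers (309 to 385 against 244 to 362 CPM) overlapped between genotypes over all rats, and no list had a marker sum of 0. Within 25-32 the endothelial sums lay apart (309 to 326 CPM in Ctns WT, 244 to 273 CPM in Ctns KO), as did the thick limb and distal sums (2822 to 3486 against 3946 to 4782 CPM). The sums of the 4 markers of the last proximal tubule segment also lay apart there (332 to 476 against 182 to 276 CPM). Of these 4 markers, 2 were called lower and 1 higher in Ctns KO rats of 25-32, where 22.1% of all genes were called lower. The part of these marker changes in the fall of the carriers was not tested.

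SLC7A13 had a companion among the markers of the last proximal tubule segment. SLC22A7 (OAT2), an organic anion carrier, stood at 13.04 ± 5.07 CPM in Ctns WT rats of 17-24 and at 0.788 ± 0.219 CPM in those of 25-32 (SD, n = 4), a log2 difference of -4.07 (edgeR adjusted p = 1.95e-06). The other 3 markers of that segment in the table were not called between the ranges, and the summed level of all 4 was 338 to 398 CPM in 17-24 and 332 to 476 CPM in 25-32.

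In the mouse the members were measured as read counts divided by the 75th percentile of each library, so that 1 is the level of the gene at that percentile. Per kilobase of exon, Ctns WT mice had most Slc6a19 (190 ± 76.0 CPM per kb) and Slc6a18 (183 ± 44.0), then Slc7a8 (114 ± 20.2), Slc3a2 (102 ± 19.8), Slc7a7 (91.8 ± 19.5) and Slc1a1 (69.0 ± 3.50; SD, n = 4). Ranges of neighbours in that order overlapped. Slc16a10 followed at 12.2 ± 1.89 CPM per kb, apart from both neighbours, and Slc36a2 (0.404 ± 0.523) and Slc7a13 (0.288 ± 0.0593) were at the bottom and overlapped. SLC6A20 was left out of this order because 2 genes share its symbol, Slc6a20a and Slc6a20b on mouse chromosome 9.

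Of the 10 members, 9 had a lower fitted level in Ctns KO than in Ctns WT mice, but only SLC7A13 passed the test. Over all 17376 genes 4.32% were called in either direction. The test was limma on log2(scaled value + 1), a scale on which the change of low genes is understated. The median difference of the 10 members was -0.15, beside 2.51e-05 over all genes.

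SLC7A13 had scaled values of 0.0111, 0.0115, 0.0161 and 0.0151 in Ctns WT and 0.00888, 0.00422, 0.00536 and 0.00566 in Ctns KO mice. The groups did not overlap, but the values stand for 10 to 31 reads against 5 to 9 reads. The difference was -0.01 ± 0.0021 on that scale (SE; limma adjusted p = 0.0402). On recovered reads the log2 fold change was -1.29 (edgeR adjusted p = 0.0287). The limma call was kept in 1 of 8 fits that left out 1 mouse, the fit without Ctns KO mouse 3, and in the others adjusted p ran from 0.05004 to 0.109.

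SLC1A1 had 5.23, 5.56, 5.54 and 5.96 in Ctns WT and 4.82, 4.79, 4.85 and 5.20 in Ctns KO mice. The groups did not overlap, though 5.20 and 5.23 lay close, and the difference of -0.15 ± 0.04 was not called (SE; limma adjusted p = 0.0926). How many of all genes lacked overlap between the mouse groups was not counted. SLC6A18 had 19.1, 11.3, 20.02 and 18.1 in Ctns WT and 11.8, 11.3, 10.3 and 14.7 in Ctns KO mice, a difference of -0.46 ± 0.19 (SE; limma adjusted p = 0.254). Ctns WT mouse 2 alone lay among the Ctns KO mice, and without it SLC6A18 passed (-0.64, limma adjusted p = 0.0459).

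SLC6A19 also had the lower mean in Ctns KO mice, but it placed the Ctns WT mice in another order. It had 8.81, 23.98, 12.8 and 18.1 in Ctns WT and 12.4, 12.8, 11.8 and 10.3 in Ctns KO. Ctns WT mouse 2 was the highest for SLC6A19 and the lowest Ctns WT mouse for SLC6A18, and Ctns WT mouse 1 was the lowest of all 8 for SLC6A19. The difference of -0.32 ± 0.27 was within that spread (SE; limma adjusted p = 0.647). The remaining members also overlapped: SLC6A20 (-0.15, limma adjusted p = 0.243), SLC7A8 (-0.24, 0.368), SLC7A7 (-0.21, 0.495), SLC16A10 (-0.08, 0.69), SLC3A2 (-0.02, 0.962) and SLC36A2 (0.00, 0.98).

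**Figure D3:**
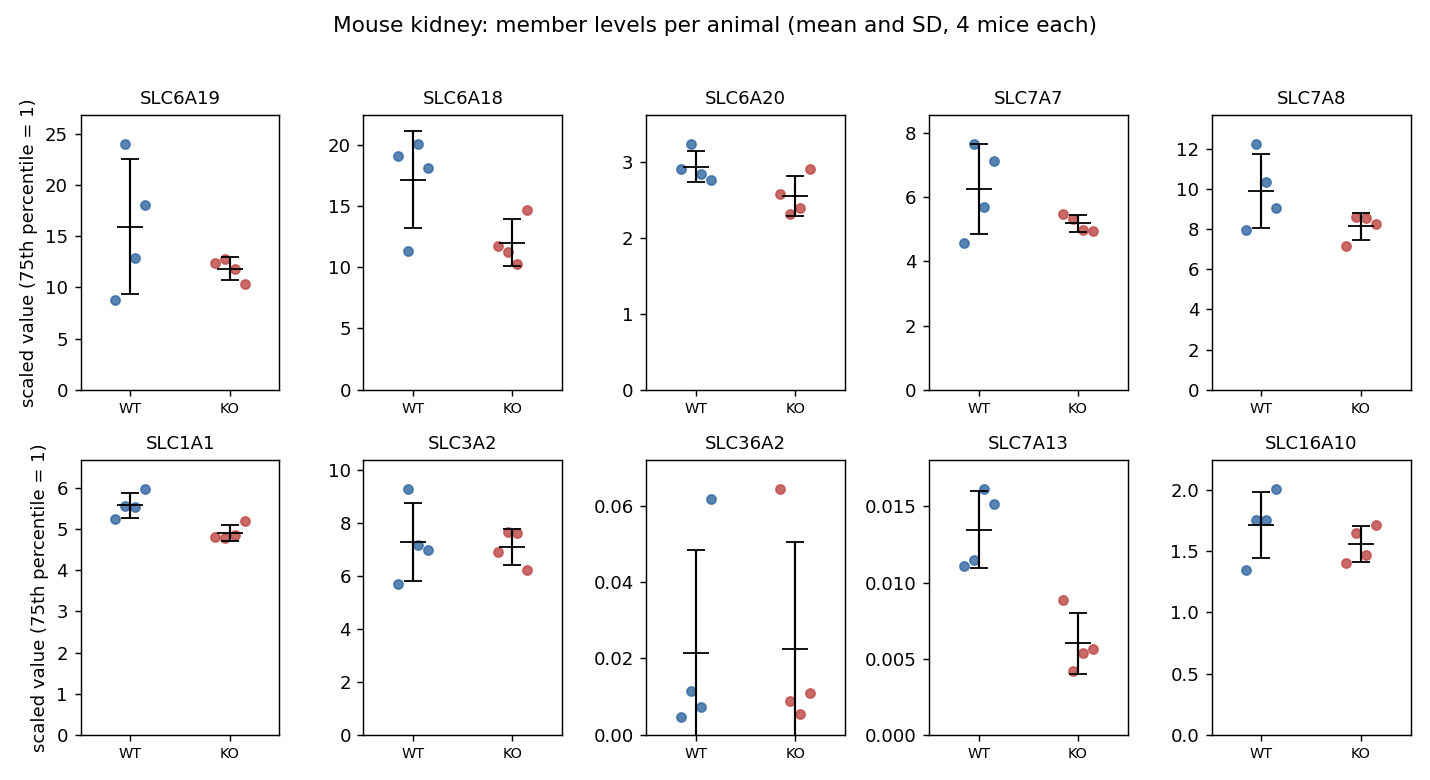
Scaled value of the 10 members in 4 Ctns WT (blue) and 4 Ctns KO (red) mice, each vertical axis starting at 0 and in units of the library's 75th percentile. Points are mice and bars the mean and SD. The groups do not overlap for SLC7A13 and for SLC1A1, which was not called. The share of all genes without overlap was not counted. The Ctns WT mice spread more widely than the Ctns KO mice for SLC6A19, SLC6A18 and SLC7A7.

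Marker lists moved with genotype in the mouse too, where 4.32% of all genes were called in either direction. Of the 10 proximal tubule markers 1 was called lower in the limma test, with summed levels of 18826 to 23441 CPM in Ctns WT and 17672 to 19813 CPM in Ctns KO mice. Of the 6 injured tubule markers 5 were higher, 1311 to 1911 against 3073 to 3958 CPM summed, and HAVCR1 was the exception (-0.05, limma adjusted p = 0.81). Of the 6 fibroblast markers 3 and of the 7 macrophage markers 4 were higher, with summed levels of 176 to 236 against 324 to 372 CPM and 102 to 111 against 161 to 190 CPM. The thick limb and distal sums, 7961 to 9233 against 9774 to 10810 CPM, also lay apart. Their part in the members' values was not tested.

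Whether the genotype change differed between the species was tested on the 9 members measured in both, and 0 of 9 were called in the limma fit, 0 of 9 also with edgeR on the reads of both species. Over all 11216 genes 3.17% were called. At an unadjusted p under 0.05, 0 of the 9 passed in limma. The nearest were SLC16A10 (-0.15 ± 0.08, SE; limma adjusted p = 0.326) and SLC1A1 (-0.26 ± 0.14, SE; limma adjusted p = 0.336), both with the larger loss in the rat. The species differ in unit, in animal number and in the spread of the Ctns WT group, so a call in the rat without one in the mouse does not show a difference.

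The other amino acid transport genes of the rat kidney did not move as a block. Of 41 listed, 36 were in the rat table and 31 were tested, of which 8 fell and 7 rose, where 12.3% of all genes were called lower and 15.2% higher, with a median log2 fold change of -0.11. In 17-24 alone 4 of the 31 were called, SLC6A13 lower and SLC7A11, SLC7A6 and SLC38A1 higher, where 2.19% of all genes were called lower and 5.07% higher. Partners of the members were among those that fell. CLTRN (collectrin), which carries SLC6A19 and its relatives to the brush border, went from 1758 ± 200 to 1340 ± 108 CPM (SD, n = 8), a change of -0.39 (edgeR adjusted p = 0.00118). SLC3A1 (rBAT), the heavy chain of the cystine carrier, went from 2024 ± 271 to 1512 ± 182 CPM (SD, n = 8), a change of -0.42 (edgeR adjusted p = 0.00309), while its light chain SLC7A9 stood at 301 ± 33.4 and 280 ± 16.9 CPM and was not called.

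Other carriers that fell in Ctns KO rats were SLC6A13 (GAT2), a carrier of GABA and taurine, from 89.0 ± 20.2 to 47.6 ± 4.16 CPM (SD, n = 8; -0.90, edgeR adjusted p = 4.43e-05), and SLC15A1 (PEPT1), a carrier of small peptides, from 60.7 ± 4.92 to 40.4 ± 12.6 CPM (SD, n = 8; -0.59, edgeR adjusted p = 0.00725). SLC36A4 (-0.39) and SLC38A7 (-0.29) also fell. The ranges differed for SLC15A1, with -0.21 in 17-24 and -1.05 in 25-32 (edgeR adjusted p of the difference = 0.00288), and for SLC36A4, with -0.01 and -0.77 (adjusted p = 0.0138), and the same test passed for SLC6A13, CLTRN and SLC6A9, each with the larger change in 25-32. Carriers that rose were mostly low in Ctns WT kidneys. SLC7A11 (xCT), the exchanger that brings cystine into cells, had 0 to 3 reads in each Ctns WT and 11 to 76 reads in each Ctns KO rat, a ratio of 31.2 per library total with a 95% exact counting interval of 17.2 to 63.2. SLC7A6 (y+LAT2), a relative of SLC7A7, went from 4.84 ± 0.767 to 8.59 ± 1.119 CPM (SD, n = 8; 0.83, edgeR adjusted p = 5.07e-05), SLC6A9 (GLYT1), a glycine carrier, from 3.84 ± 0.550 to 6.80 ± 2.26 CPM (0.82) and SLC38A1 (SNAT1), a glutamine carrier, from 3.19 ± 0.942 to 5.48 ± 1.10 CPM (0.78). SLC1A3 (0.46) and SLC7A1 (0.33) rose as well. In the mouse 2 of 40 listed genes passed, a share near the 4.32% of all genes called, and both were upward: SLC38A6 (0.241 ± 0.0143 to 0.305 ± 0.0131, limma adjusted p = 0.0199) and SLC43A3 (0.800 ± 0.0418 to 1.16 ± 0.117; SD, n = 4, limma adjusted p = 0.0188).

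**Figure D4:**
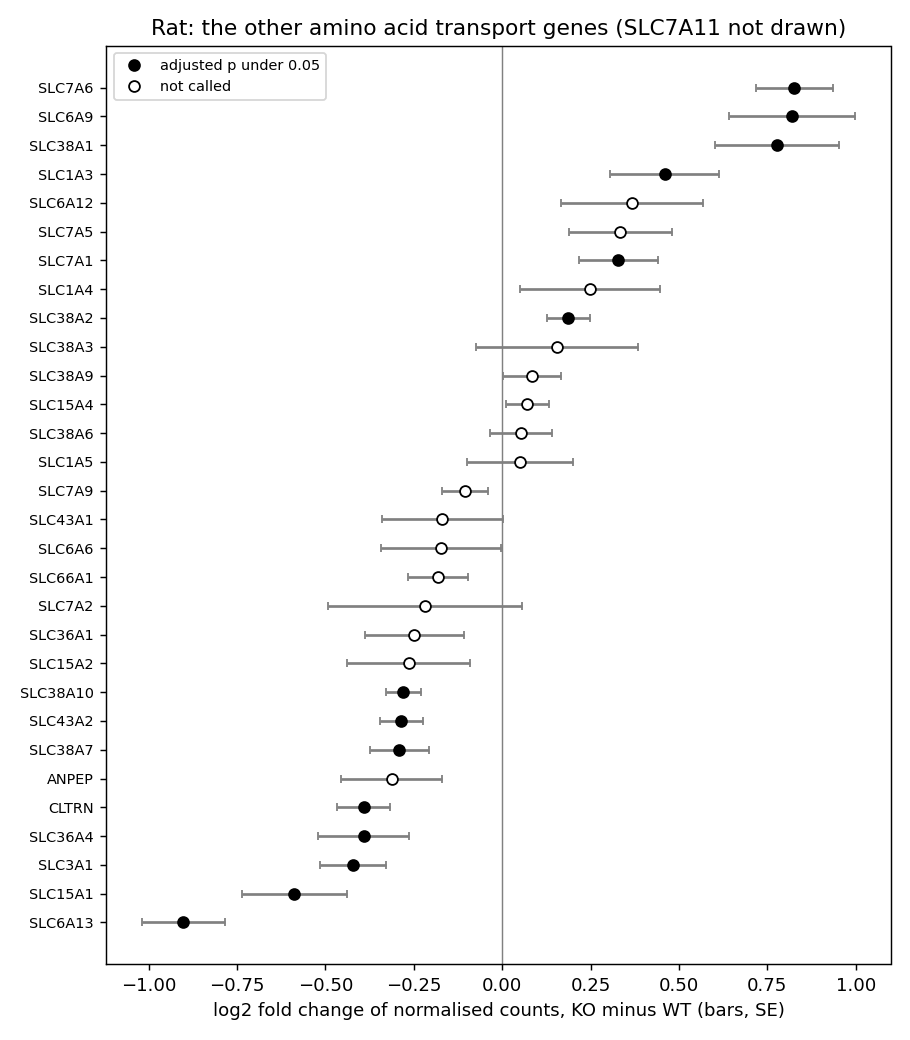
Log2 fold change of normalised counts, Ctns KO minus Ctns WT, for 30 of the 31 other amino acid transport genes tested in the rat, in order of size, with SE bars. Filled points passed an adjusted p of 0.05. SLC6A13 stands at the low end and SLC7A6, SLC6A9 and SLC38A1 at the high end, and SLC7A11 is left out because its Ctns WT rats had 0 to 3 reads.

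Within the 4 groups of rats, the members varied together only in part. Deviations of log2 CPM from the group means were correlated over the 16 rats, which share library composition, so the values are descriptions. Among the 28 pairs without SLC7A13, Pearson's r ran from -0.77 to 0.90 with a median of 0.22. The highest was SLC7A7 with its heavy chain SLC3A2 (0.90), followed by SLC6A19 with SLC7A8 (0.81). SLC6A18 went against SLC1A1 (-0.77), SLC16A10 (-0.76) and its genomic neighbour SLC6A19 (-0.54). The genes most like SLC6A19 among 10818 were SLC31A1 (0.89), DYNC1LI1 (0.87) and PLPBP (0.85), and those most like SLC1A1 were DNAJC13 (0.91), WDTC1 (0.90) and ACMSD (0.90). SLC16A10 was followed most closely by SLC10A1 (0.86), ABAT (0.86) and ELOVL2 (0.85), and SLC7A8 by ABAT (0.85), DENND1A (0.84) and FTO (0.83). The values of these most similar genes are the highest of a search among 10818, which by itself yields high values, and they were not tested.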

How the data were processed

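RNA was extracted from mouse and rat kidney, and poly(A) libraries were made with a stranded kit and sequenced as paired reads. The submitters' processing notes name bcl2fastq 2.20, STAR 2.7.3, DESeq2 1.24.0, R 3.6.1 and the builds mm10 and rn5; the counting tool and annotation are not given in the sources used here. The deposited mouse values are a signal made by the authors as reads plus 0.5 over the same for the library's 75th percentile, and 99.0% of values gave whole reads within 0.01. The deposited rat values are estimated counts with a small constant added by the authors, 97.7% of them whole within 0.01; they were rounded. The rows carry human-style symbols.

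Groups came from the labels. Mouse genotypes were compared with limma 3.58.1 on log2(scaled value + 1) (trend and robust options, no filter). Rat genotypes, and the number ranges, were compared with edgeR 4.0.16 quasi-likelihood tests (TMM, filterByExpr, robust, R 4.3.3), and the species with limma on the shared symbols, rat values scaled to their 75th percentile. SE in edgeR is the log2 fold change over the square root of F. Fits covered all symbols with Benjamini-Hochberg adjustment, and a symbol was called at an adjusted p under 0.05. Intervals cover counting error only. Each sample was taken as a separate animal because the paper gives the number of animals per group, and the sample numbers served as animal numbers. Alternatives were DESeq2 1.42.0, limma-voom, other scalings, filters and pseudocounts, a covariate for the range, and fits without each animal; library totals were added after seeing the data. The scripts were tested on simulated data. All 10 members are named in the genotype comparisons of all rats and of the mice, and not all of them in the other comparisons. The other transport genes are named where called in the rat (at most 12 by size) or the mouse. Also named are the 3 genes most like each of 4 members with the largest rat change. Members and lists were chosen with earlier results of these data known. The genotypes share no replicate numbers, so none could serve as a block; the number range was fitted as a covariate only in the alternative named above.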

Additional observations from a re-analysis of the deposited data

Results flagged for a closer look

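In 4 members the genotype change of the rats differed between numbers 17-24 and 25-32 by the interaction test of edgeR. The difference was -0.93 on the log2 scale for SLC6A19, -0.70 for SLC1A1, -0.44 for SLC16A10 and -0.42 for SLC7A8, each a larger loss in 25-32. The range is not described in the labels, and what it stands for cannot be told apart from any other difference between these rats.

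Of 38 groups of member values checked with Dixon's criterion, 3 had a sample far from the rest, where chance flags about 1 in 20 groups. Ctns KO mouse 8 had an SLC1A1 scaled value of 5.20, above the 4.79 to 4.85 of the other 3 Ctns KO mice. SLC36A2 stood at 0.0642 in Ctns KO mouse 3 and at 0.0617 in Ctns WT mouse 7, where the other mice of both genotypes had 0.00476 to 0.0115.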

How the results depend on the processing

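The 8 rat calls stayed at 8 under other scalings, filters and tools and were 7 with library totals; 25-32 gave 8 and, with library totals, 6. For 17-24, a fit of all 16 rats gave 1 member. For the range difference, library totals gave 2, with SLC7A7 (0.005) and SLC3A2 (0.0715) reversed, and reversed SLC6A20 (-0.11) and SLC16A10 (-0.11) between Ctns WT ranges. In the mouse a mean of at least 0.1 left 0 members and DESeq2 on recovered reads called 3 (SLC7A13, SLC6A18 and SLC1A1), and edgeR reversed SLC36A2 (-0.21). For SLC6A20 the species difference reversed with a pseudocount of 0.1 (-0.079) and with edgeR (-0.13). None of the reversed values was called.

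With 1 animal left out, the members called ranged from 0 to 1 in the mouse, 7 to 8 in the rat, 1 to 3 in 17-24, 2 to 4 for the range difference and 3 to 5 between Ctns WT ranges (5 without Ctns KO rat 26). Log2 changes crossed 0 for SLC3A2 (-0.12 to 0.091) and SLC36A2 (-0.018 to 0.020) in the mouse, for SLC7A13 in all rats (-0.12 to 0.30), in 17-24 (-0.12 to 0.17) and in the range difference (-0.029 to 0.34), and for SLC6A20 (-0.0070 to 0.073) and SLC16A10 (-0.047 to 0.060) between Ctns WT ranges. In the species difference they crossed for SLC6A19 (-0.44 to 0.010), SLC7A7 (-0.16 to 0.049), SLC7A8 (-0.16 to 0.025) and SLC7A13 (-0.011 to 0.16). The cause was not tested. Over all genes, the mouse calls numbered 751, and 1198 with edgeR and 1520 with DESeq2 on recovered reads; the rat calls numbered 3180, and 4551 with the range as a covariate, and those of the range difference 1745, and 2656 with library totals. In the species test 355 genes were called, and 232 after the filter. No paired analysis was possible because the groups compared share no replicate numbers. Depth limits SLC36A2 in the rat and SLC7A13 and SLC36A2 in the mouse.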
